A study of Mus musculus with 800 samples.

Results

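Kv4 channels are voltage-gated potassium channels that open below the spike threshold, inactivate quickly and carry the A-type current of neuronal cell bodies and dendrites. Their pore is formed by the products of Kcnd1, Kcnd2 and Kcnd3, and in neurons it binds cytosolic KChIP proteins (Kcnip1, Kcnip2, Kcnip3 and Kcnip4), which are calcium-binding relatives of the neuronal calcium sensors, and DPP-like proteins (Dpp6 and Dpp10), single-pass membrane proteins related to dipeptidyl peptidases but without peptidase activity. Both kinds of auxiliary subunit raise surface expression and change gating, so the mix of subunits in a cell type bears on the current it carries. The 9 genes were found by symbol among the 32285 rows of the count table, and all 9 were present.

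The counts came from 800 single nuclei of C57Bl/6J mice, sorted by flow cytometry for a yellow fluorescent histone fusion (H2B-SYFP2) that a PHP.eB AAV vector had delivered in young adult animals at 5e11 vector genomes per mouse, 3 to 4 weeks before. The 20 vector labels (AiE0078h, AiE0140h, AiE0387m, AiE0390m, AiE0391h, AiE0401h, AiE0410m, AiE0445h_3xC2, AiE0447h, AiE0450h, AiE0452h, AiE0475m, AiE0600m, AiE0682h, AiE0743m_3xC2, AiE0779m, CMV, DLX2.0, hI56i and hSyn1) had 40 nuclei each, and every nucleus, whatever its vector, carried the same reporter. The vectors differ in the element that drives the reporter, so the reporter selects the nuclei. The design text describes these elements as enhancers specific to cell types, but the labels CMV and hSyn1 name promoters. Every nucleus was labelled as anterior lateral motor cortex, while the design text also names striatum and visual cortex. No animal was named, so vectors stood in for replicates, and p-values reflect only how vector sums vary, which may be technical.

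Promoter windows are shown to give the sequence context of the genes that the results turn on. They are those of Kcnd2, the leading pore gene per exon kilobase in the neuronal classes, and of Kcnip2 and Kcnip1. The latter 2 were past the threshold between neuronal classes. Each is the RefSeq window of 250 bases before to 50 bases after an annotated start (GRCm38.p6), with capitals marking, on either strand, the TATA box letters TATAAA, the CAAT box letters CCAAT and the GC box letters GGGCGG, which do not overlap each other: Kcnd2 (chr6:21215096-21215395, plus strand), Kcnip2 (chr19:45816014-45816313, minus strand) and the first of 3 Kcnip1 windows (chr11:33993144-33993443, minus strand).
Kcnd2: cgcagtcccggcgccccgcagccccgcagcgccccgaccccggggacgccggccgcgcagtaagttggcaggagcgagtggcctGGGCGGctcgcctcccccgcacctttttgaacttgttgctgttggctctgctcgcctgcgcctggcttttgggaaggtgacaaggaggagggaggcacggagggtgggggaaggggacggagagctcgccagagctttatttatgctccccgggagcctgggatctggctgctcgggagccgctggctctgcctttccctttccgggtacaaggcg
Kcnip2: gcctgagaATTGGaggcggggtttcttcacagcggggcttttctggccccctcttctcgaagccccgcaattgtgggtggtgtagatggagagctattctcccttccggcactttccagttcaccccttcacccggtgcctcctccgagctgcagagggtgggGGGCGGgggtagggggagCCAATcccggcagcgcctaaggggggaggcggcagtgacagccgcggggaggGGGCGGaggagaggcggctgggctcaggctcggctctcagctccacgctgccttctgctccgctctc
Kcnip1: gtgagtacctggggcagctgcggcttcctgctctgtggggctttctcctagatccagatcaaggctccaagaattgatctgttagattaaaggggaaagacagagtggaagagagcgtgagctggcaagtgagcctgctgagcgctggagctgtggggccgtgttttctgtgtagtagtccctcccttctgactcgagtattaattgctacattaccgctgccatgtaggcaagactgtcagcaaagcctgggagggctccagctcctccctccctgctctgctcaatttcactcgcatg
Windows existed for 8 of the 9 members. The Kcnd2 window held 1 GC box match, that of Kcnip2 held 2 CAAT box and 2 GC box matches, and the first Kcnip1 window held none of the 3 motifs. The second Kcnip1 window, not printed, held 1 CAAT box and 1 GC box match, and the third held 1 CAAT box match. Which of the 3 Kcnip1 starts these nuclei used is not known from gene counts. Over 32851 windows of the same length, 13.6% held the TATA box letters, 37.4% the CAAT box letters and 35.7% the GC box letters. The share of G and C was 68.7% for Kcnd2 and 67.0% for Kcnip2, against a median of 52.7% over all windows. For the 3 Kcnip1 windows in order it was 54.3%, 66.7% and 45.3%.

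Of the 800 nuclei, 698 had at least 1000 detected genes and were clustered without the 9 members and the other genes of the lists used here. Marker genes placed 50 nuclei in an oligodendrocyte-like class, 106 in an astrocyte-like class, 161 in a class like striatal projection neurons (SPN-like, led by Rgs9, Pde10a and Ppp1r1b), 273 in a GABAergic-like class and 108 in a glutamatergic-like class. The SPN-like nuclei go against the cortical label: all 8 of their markers were counted and summed to between 5907 and 7450 CPM (counts scaled to a common library total) per vector, against at most 942 CPM in the glutamatergic-like sums. Levels are summed counts per vector and class, for vectors with at least 3 nuclei of the class, scaled by the summed total to CPM; a lower sum may reflect fewer nuclei with the RNA or less RNA per nucleus. Median counts per nucleus lay between 241227 and 300959 in the 5 classes (single nuclei had 70 to 901264 counts over all 800, those left out included), and the median number of genes was 1328 in the 2 glial classes and 2942 in the 3 neuronal ones. The library kit does not mark strand, and whether intronic reads were counted is not given in the sources used here, so reads of overlapping genes cannot be told apart; beside the member's own counts, the largest overlapping genes were 5730480H06Rik at Kcnip4 (6791 counts beside 11797), Gm43847 at Kcnd3 (1829 beside 5730) and Gm12120 at Kcnip1 (3448 beside 18433).

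The pore subunits differed in which neuronal class had the highest mean. Kcnd2 (chromosome 6, 21215503 to 21729805), which encodes Kv4.2, the main dendritic Kv4 pore of many forebrain neurons, had 0 CPM in the lowest, 145 in the median and 506 in the highest of 14 SPN-like sums. In the 18 GABAergic-like sums it ran from 0 through a median of 45.1 to 168 CPM, and in the 12 glutamatergic-like sums from 0 through 22.98 to 106. The means, 148 ± 127, 50.9 ± 45.2 and 37.4 ± 39.4 CPM (SD), lay within each other's spread. Kcnd3 (chromosome 3, 105452330 to 105674002), the Kv4.3 pore, showed another order: 12 of 14 SPN-like sums had no count, and the highest had 37.6 CPM. The GABAergic-like sums ran from 0 through 49.9 to 159 CPM and the glutamatergic-like sums from 0 through 11.3 to 78.4. A single nucleus gave 80.0% of all Kcnd3 counts in SPN-like nuclei. Kcnd1 (chromosome X, 7822289 to 7838280), the Kv4.1 pore, was low in all classes, with medians of 1.79 CPM in SPN-like, 0.658 in GABAergic-like and 0.750 in glutamatergic-like sums, and its counts came from few nuclei: the top 5 nuclei held 97.4% of its glutamatergic-like counts.

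**Figure D1:**
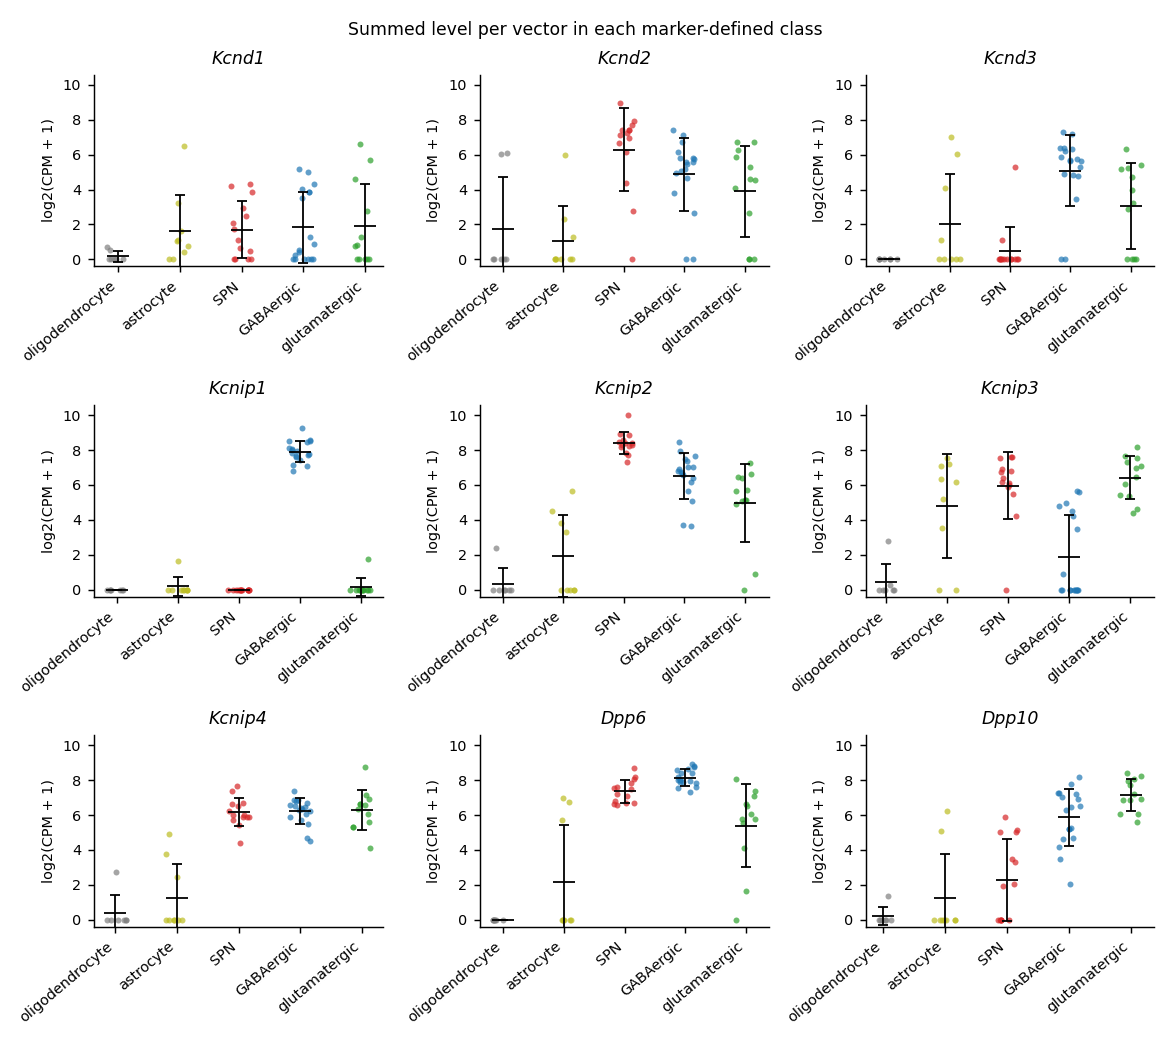
Each point is the summed level of 1 vector in 1 marker-defined class, as log2(CPM + 1), with the mean and SD over vectors of the log values as bars. Kcnip1 stands at 109 to 616 CPM in every GABAergic-like sum and at or near 0 elsewhere, Kcnip2 is above 159 CPM in every SPN-like sum, and the 2 non-neuronal-like classes on the left lie low for most members.

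Kcnip1 and Kcnip2, whose KChIP products bind the cytosolic end of the pore subunits, were uneven between the neuronal classes. Kcnip1 (chromosome 11, 33629339 to 33993152) was counted in 0 of 161 SPN-like nuclei, which allows a share of up to 1.86% by the floor of 3 counts and 2.27% by the exact 95% interval, in 170 of 273 GABAergic-like nuclei (62.3%, exact 95% interval 56.2% to 68.0%) and in 2 of 108 glutamatergic-like nuclei (1.85%). Its 18 GABAergic-like sums ran from 109 through a median of 235 to 616 CPM, 11 of 12 glutamatergic-like sums were at 0 and the other was at 2.34 CPM, and all 14 SPN-like sums were at 0. Kcnip2 (chromosome 19, 45791839 to 45816061) had 160, 323 and 1020 CPM in the lowest, median and highest SPN-like sum, 11.6, 107 and 351 in the GABAergic-like sums and 0, 42.2 and 152 in the glutamatergic-like sums. Every SPN-like sum lay above every glutamatergic-like sum. It was counted in 77.6% of SPN-like, 27.1% of GABAergic-like and 30.6% of glutamatergic-like nuclei.

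Kcnip3 (chromosome 2, 127456498 to 127522094), whose product is also known as the transcriptional repressor DREAM, had a median of 77.5 CPM in SPN-like sums, with a range of 0 to 195. In GABAergic-like sums its median was 0 and its highest 49.9 CPM, with 10 of 18 sums at 0, and in glutamatergic-like sums it ran from 19.99 through 106 to 286. Kcnip4 (chromosome 5, 48389502 to 49524907) had the closest class means of the 4 KChIPs: 82.5 ± 49.0 in SPN-like, 82.3 ± 35.9 in GABAergic-like and 107 ± 111 CPM in glutamatergic-like sums (SD, n = 14, 18 and 12 vectors), and no neuronal sum was at 0. The share of nuclei with a Kcnip4 count was 39.8%, 33.7% and 62.0% in these classes, and thinning every nucleus to 150000 counts left shares of 40.3%, 32.3% and 59.4%.

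The DPP-like genes had different orders of classes. Dpp6 (chromosome 5, 26817203 to 27727505), which moves Kv4 channels towards the membrane and speeds their gating, had 93.1, 163 and 416 CPM in the lowest, median and highest SPN-like sum, 157, 259 and 481 in the GABAergic-like sums, and 0, 60.0 and 267 in the glutamatergic-like sums. Dpp10 (chromosome 1, 123321471 to 124045559) had 0, 3.00 and 58.9 CPM in SPN-like sums, 3.18, 82.5 and 287 in GABAergic-like sums and 47.0, 134 and 344 in glutamatergic-like sums. Dpp10 was counted in 8.70% of SPN-like, 40.3% of GABAergic-like and 81 of 108 glutamatergic-like nuclei. In the order of mean levels, most neighbouring classes overlapped within 1 SD; the exceptions were Kcnip1 between GABAergic-like and the next class, and Kcnip4 between GABAergic-like and astrocyte-like sums.

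Levels of different genes were compared only per kilobase of exon (GENCODE M21), and they describe the make-up of each family. Whether introns were counted is not known, and the KChIP genes run from 24.2 kb (Kcnip2) to 1135.4 kb (Kcnip4), so if they were, these shares would also carry gene length. In SPN-like nuclei Kcnd2 made up 95.9% of the pore level, Kcnip2 68.4% of the KChIP level and Dpp6 94.7% of the DPP-like level. GABAergic-like nuclei had a mixed pore level, 57.4% Kcnd2 and 34.03% Kcnd3, with KChIPs split between Kcnip1 (41.0%), Kcnip2 (33.97%) and Kcnip4 (21.98%) and 80.6% of the DPP-like level from Dpp6. In glutamatergic-like nuclei Kcnd2 gave 59.2% of the pore level, Kcnip3 and Kcnip4 gave 41.5% and 38.2% of the KChIP level, and Dpp10 gave 61.6% of the DPP-like level. The summed KChIP level per exon kilobase was 156 in SPN-like, 103 in GABAergic-like and 77.4 in glutamatergic-like nuclei, and the summed pore level was 30.03, 17.2 and 12.3.

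**Figure D2:**
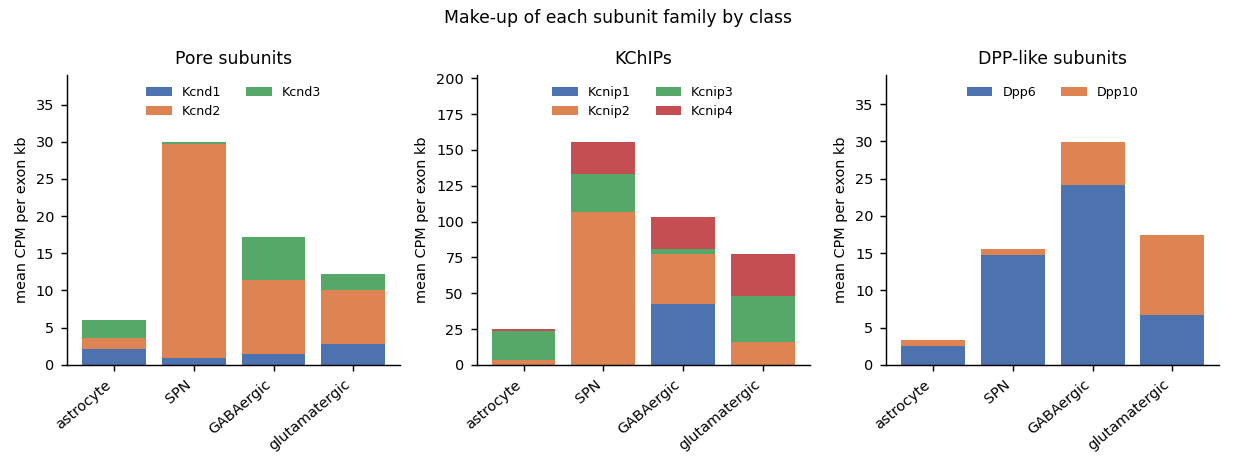
Stacked bars give the mean CPM per kilobase of exon of each gene in the pore, KChIP and DPP-like families, by class. Kcnd2, Kcnip2 and Dpp6 fill 95.9%, 68.4% and 94.7% of the SPN-like bars, and Dpp10 takes 61.6% of the glutamatergic-like DPP-like bar.

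Within single nuclei, thinned to 150000 counts, most nuclei of each neuronal class had a count of neither Kcnd2 nor Kcnd3, and the overlap of the 2 pores was not tested. Of 149 SPN-like nuclei, 57 had a count of Kcnd2 without Kcnd3, 1 of Kcnd3 without Kcnd2, 2 of both and 89 of neither. Of 260 GABAergic-like nuclei, 38 had Kcnd2 only, 34 Kcnd3 only, 12 both and 176 neither, and among glutamatergic-like nuclei the counts were 15, 9, 3 and 74. At least 1 pore, 1 KChIP and 1 DPP-like gene were counted in the same nucleus in 41 SPN-like, 72 GABAergic-like and 23 glutamatergic-like nuclei. A median of 3 of the 9 members was counted per nucleus in each of these classes. At this depth a nucleus without a count is not known to lack the RNA.

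GABAergic-like nuclei differed from glutamatergic-like nuclei in 2 KChIPs, in 12 vectors that held both classes. Most of these vectors also held SPN-like nuclei, so GABAergic-like sums may be partly striatal, and class and tissue could not be told apart. Kcnip1 had 137, 235 and 616 CPM in the lowest, median and highest GABAergic-like sum, against 0, 0 and 2.34 CPM in the glutamatergic-like sums. The groups did not overlap, and Kcnip1 was higher in 12 of 12 vectors, a ratio of mean CPM of 1455. The fitted log2 fold change was 11.03 (SE 0.90, quasi-likelihood F test in edgeR, Benjamini-Hochberg adjusted p = 9.16e-09 over the 8943 genes tested). Kcnip1 passed the filter on low counts only through its GABAergic-like counts, so this fit is no test of the difference. The share of all genes without overlap was not computed, here or in the comparisons below, so a lack of overlap only describes the ranges. Kcnip3 had 0, 0 and 49.9 CPM in the GABAergic-like sums, against 19.99, 106 and 286 in the glutamatergic-like sums. It was lower in 11 of 12 vectors with overlapping ranges, a ratio of mean CPM of 0.0787 (fitted log2 fold change -7.97, SE 1.81, adjusted p = 0.0103, edgeR). Where many sums have no count, the fitted change exceeds what the means give, so both are printed. The Kcnip3 call did not hold within the library series S40326 (the first part of the library names), with -8.48 in 7 vectors and adjusted p = 0.188, or without title-number runs of 8 nuclei that held an SPN-like nucleus, with -8.77 and adjusted p = 0.525, while that of Kcnip1 held in both (12.01 and 10.21).

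Dpp6 lay just outside the threshold in the same contrast. It averaged 288 ± 85.3 CPM in GABAergic-like and 82.8 ± 76.7 CPM in glutamatergic-like sums (SD, n = 12 vectors each) and was above in 11 of 12 vectors (log2 fold change 2.35, SE 0.67, adjusted p = 0.0531, edgeR). Leaving out 1 vector at a time, the adjusted p was 0.0428 without CMV and 0.0314 without hI56i, and above the threshold without any 1 of the other 10, up to 0.117 without AiE0140h. It was 0.198 within the series S40326 and 0.787 without runs holding SPN-like nuclei. Kcnd3 averaged 51.9 ± 41.1 against 20.6 ± 24.1 CPM, above in 11 of 12 vectors, and Kcnip2 128 ± 92.5 against 54.5 ± 43.9, above in 10 of 12, with adjusted p = 0.597 and 0.625 in edgeR. Dpp10 averaged 98.2 ± 88.4 against 170 ± 99.8 CPM, Kcnd2 47.0 ± 43.5 against 37.4 ± 39.4 and Kcnip4 85.6 ± 33.5 against 107 ± 111, with adjusted p of 0.551, 0.910 and 0.985 in edgeR. Kcnd1 did not pass the filter on low counts. So 2 of 8 tested members passed, against 3.16% of all genes, 1 higher (1.69% of all genes) and 1 lower (1.48%). Of these, Kcnip1 passed the filter only through its GABAergic-like counts, and Kcnip3 mainly through its glutamatergic-like ones. The members' median log2 fold change was 1.15, beside 0.34 over all genes tested.

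Among related genes in this contrast, 2 of 12 tested pores of other Kv families passed, among them Kcnc1, a fast delayed rectifier of fast-spiking cells, at 556 ± 216 against 85.6 ± 77.5 CPM (higher in 12 of 12 vectors). Of 12 tested other partners and modulators of Kv4, Kcnab1, a Kv beta subunit, was higher (183 ± 63.2 against 31.1 ± 58.0 CPM), and Camk2a (48.4 ± 25.3 against 219 ± 139) and Dlg1 (108 ± 87.8 against 276 ± 163) were lower. None of 5 tested neuronal calcium sensors and 2 tested peptidase relatives passed at adjusted p of 0.05 in edgeR.

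SPN-like nuclei were compared with glutamatergic-like nuclei in 9 vectors. The 2 sums of a vector can come from different library series and, by their markers, from different tissue. Library series was not in the fit, and within S40324 no vector held enough nuclei of both classes. Class and tissue could not be told apart, here or for SPN-like against GABAergic-like sums below. Kcnip2 had 160, 312 and 1020 CPM in the lowest, median and highest SPN-like sum, against 0.836, 34.6 and 152 CPM in the glutamatergic-like sums. The ranges did not overlap, and it was higher in 9 of 9 vectors (log2 fold change 3.06, SE 0.64, adjusted p = 0.00744, edgeR). Dpp10 had 0, 3.21 and 58.9 CPM in the SPN-like sums, against 65.2, 121 and 302 in the glutamatergic-like sums. Its ranges did not overlap either, with all 9 vectors lower and a ratio of means of 0.0952 (log2 fold change -5.63, SE 1.52, adjusted p = 0.0454, edgeR), but the call was lost without any 1 of 7 vectors (AiE0140h, AiE0401h, AiE0447h, AiE0450h, AiE0682h, AiE0743m_3xC2 or hI56i), with an adjusted p of up to 0.108. Within the series S40326 the change of Dpp10 was -3.28 (adjusted p = 0.830) and that of Kcnip2 2.98 (adjusted p = 0.0459). With at least 5 nuclei per sum, which left 6 vectors, neither passed (adjusted p = 0.117 for Kcnip2 and 0.272 for Dpp10).

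Of 6 tested members 2 passed, against 3.08% of all genes, 1 higher (1.66%) and 1 lower (1.42%). Kcnd2 averaged 155 ± 159 in SPN-like and 32.01 ± 36.6 CPM in glutamatergic-like sums, above in 8 of 9 vectors (adjusted p = 0.576, edgeR), and Dpp6 205 ± 107 against 84.0 ± 83.0 (8 of 9, adjusted p = 0.559). Kcnip3 (92.9 ± 64.8 against 111 ± 88.0 CPM) and Kcnip4 (93.6 ± 55.7 against 105 ± 129) had adjusted p of 0.995 and 0.985. Kcnd1, Kcnd3 and Kcnip1 did not pass the filter, Kcnip1 with 0 counts in both classes. The members' median log2 fold change was 0.92, beside 0.04 over all genes. In the other lists Hpca, which encodes the calcium sensor hippocalcin (790 ± 308 against 181 ± 111 CPM), was the 1 of 5 tested calcium sensors that passed, and Kcnab1 (299 ± 107 against 13.7 ± 25.4) the 1 of 11 partners; no other Kv pore passed of 9 tested and no peptidase relative of 2.

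SPN-like nuclei differed from GABAergic-like nuclei in 3 KChIPs and in Dpp10. In 12 vectors Kcnip1 had 0 counts in SPN-like sums, against 109, 248 and 616 CPM in the lowest, median and highest GABAergic-like sum. It was lower in 12 of 12 vectors, 2362-fold when set against a floor of 3 counts in all SPN-like sums together. That floor covers counting error only. Without molecular identifiers a single nucleus with the RNA can exceed it, so the fold is no lower bound. Kcnip1 passed the filter on low counts only through its GABAergic-like counts, so its edgeR fit (adjusted p = 9.32e-06) is no test of the difference. Kcnip2 had 160, 323 and 1020 CPM in SPN-like sums, against 48.7, 116 and 248 in GABAergic-like sums, with overlap, and was higher in 11 of 12 vectors (log2 fold change 1.53, SE 0.36, adjusted p = 0.00684). Kcnip3 had 0, 77.5 and 195 CPM against 0, 0 and 49.9, higher in 11 of 12 vectors with a ratio of means of 9.08 (fitted log2 fold change 7.18, SE 1.95, adjusted p = 0.0212). Dpp10 had 0, 3.00 and 58.9 CPM against 3.18, 99.6 and 287, lower in 12 of 12 vectors with a ratio of means of 0.137 (fitted log2 fold change -4.35, SE 1.03, adjusted p = 0.00774).

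**Figure D3:**
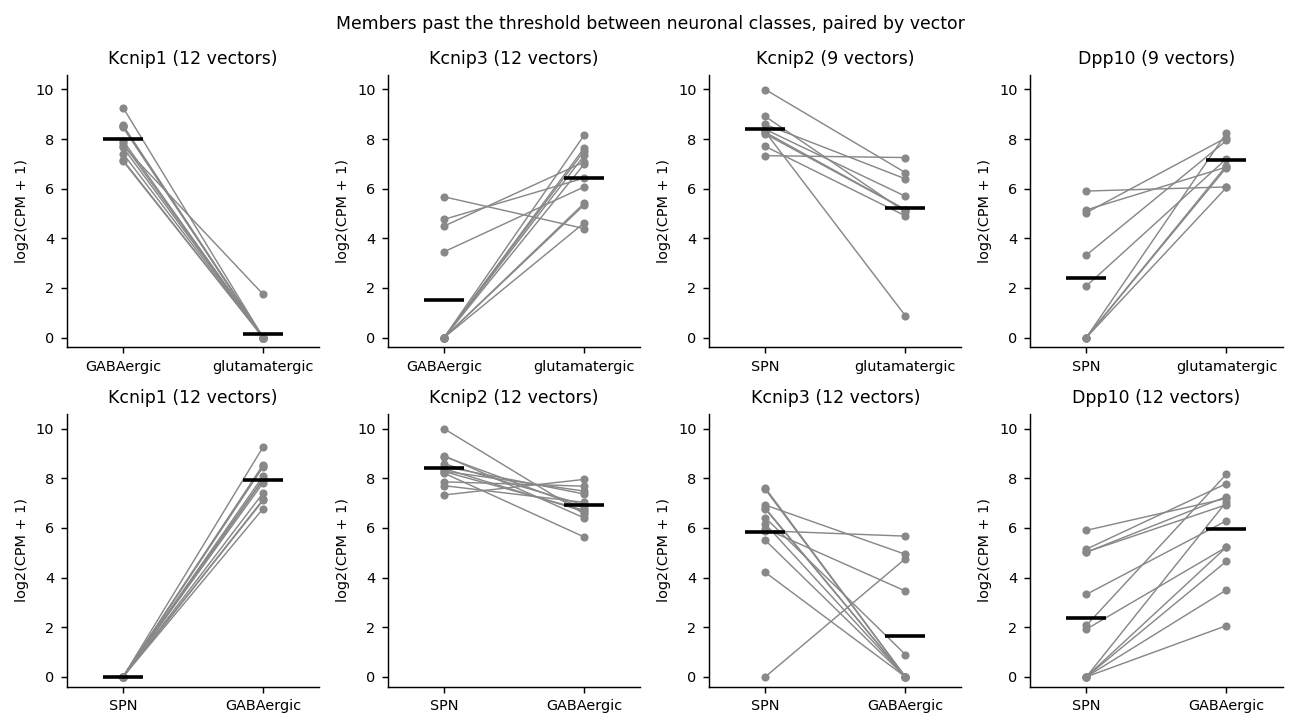
Lines join the 2 class sums of a vector on a log2(CPM + 1) axis for the members past the threshold between neuronal classes, with black bars for the mean over vectors. Kcnip1 falls to 0 in every SPN-like sum, against 109 to 616 CPM in GABAergic-like sums, and for Kcnip3 1 of 12 lines runs the other way.

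These 4 of 7 tested members compare with 8.53% of all genes, and the 2 higher and 2 lower with 3.19% and 5.34%. Among the 4, Kcnip1 passed the filter on low counts only through its GABAergic-like counts, and Kcnip3 mainly through its SPN-like ones. The members' median log2 fold change was -0.08, beside -0.62 over all genes. The Kcnip3 call was lost without AiE0140h, AiE0682h or AiE0743m_3xC2, with an adjusted p of up to 0.0539. With no replicate block for the vector, the calls of Kcnip3 (adjusted p = 0.0905) and Dpp10 (adjusted p = 0.0814) were lost. That of Kcnip2 was lost within the series S40326 (2.07 on the log2 scale, adjusted p = 0.146) and with equal numbers of nuclei (1.24, adjusted p = 0.120). Dpp6 averaged 185 ± 100 in SPN-like and 294 ± 97.4 CPM in GABAergic-like sums, below in 9 of 12 vectors (adjusted p = 0.243, edgeR), Kcnd2 155 ± 136 against 63.4 ± 49.1, above in 9 of 12 (0.557), and Kcnip4 88.2 ± 49.4 against 90.6 ± 35.4 (0.959). Kcnd3 averaged 3.23 ± 10.8 against 47.0 ± 40.8 CPM and was below in 10 of 12 vectors, with both classes at 0 in the other 2. It missed the filter on low counts, so the main run did not test it. Leaving out AiE0391h or hI56i let it pass the filter, with log2 fold changes of -8.68 and -8.76. It passed only through its GABAergic-like counts, so these fits are no test of the difference.

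Other channel genes differed in the same contrast. Of 11 tested pores of other Kv families, Kcnc2 (3.04 ± 5.37 against 232 ± 119 CPM), Kcnc1 (31.6 ± 45.4 against 521 ± 192) and Kcna2 (68.4 ± 67.5 against 205 ± 81.3) were lower and Kcnq5, an M-type channel pore, was higher (109 ± 40.3 against 24.7 ± 22.3). Of 5 tested calcium sensors Hpca was higher (717 ± 317 against 130 ± 112 CPM), and Ncald (34.5 ± 66.7 against 194 ± 112) and Vsnl1 (5.59 ± 6.72 against 83.8 ± 51.4) were lower. Of 12 partners and modulators, Camk2b, a calcium-dependent kinase subunit (517 ± 174 against 166 ± 93.1 CPM), and the anchoring protein gene Akap5 (121 ± 94.1 against 32.1 ± 30.6) were higher and the beta subunit Kcnab3 was lower (20.7 ± 49.0 against 79.4 ± 36.3), and no peptidase relative of 2 passed (edgeR). Marker reads of other classes stood beside these levels: in SPN-like sums 6 of 8 oligodendrocyte markers were counted, with Mog and Opalin at 0 and sums of 0 to 2303 CPM, against 8 of 8 and 0 to 401 CPM in GABAergic-like sums. Microglial markers summed to at most 1955 CPM in SPN-like and 62.3 in GABAergic-like sums. Their part in the results was not tested.

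The 2 glial classes, pooled as non-neuronal-like nuclei, had lower levels of 7 members than neuronal-like nuclei in 15 vectors. Dpp6 had 0, 0 and 126 CPM in the lowest, median and highest non-neuronal-like sum, against 129, 216 and 329 CPM in the neuronal-like sums of the same vectors; it was lower in 15 of 15 (ratio of means 0.0790, adjusted p = 7.32e-06, edgeR). Kcnip4 had 0, 0 and 24.03 against 27.5, 67.8 and 161 CPM, lower in 15 of 15 (ratio 0.0505, adjusted p = 3.06e-04). For both genes the ranges did not overlap, but the share of all genes without overlap was not computed. Kcnip1 (0.142 ± 0.550 against 127 ± 78.0 CPM), Kcnip2 (5.49 ± 11.1 against 173 ± 89.0), Dpp10 (7.29 ± 19.5 against 72.3 ± 58.1), Kcnd2 (14.2 ± 29.5 against 77.2 ± 44.9) and Kcnd3 (13.8 ± 35.7 against 32.5 ± 30.8) were also lower, with adjusted p from 7.64e-07 to 0.00504 in edgeR. Kcnip3 was not past the threshold, at 42.6 ± 54.6 against 61.7 ± 48.8 CPM (adjusted p = 0.247), and Kcnd1, at 8.75 ± 20.3 against 7.73 ± 7.47, missed the filter.

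The 7 of 8 tested members are to be read against 34.7% of all genes, 32.6% lower and 2.1% higher. The members' median log2 fold change was -8.65, beside -2.73 over all genes. Each of the 7 was at 0 in 10 to 14 of the 15 non-neuronal-like sums and passed the filter on low counts mainly through neuronal-like counts. Their p-values and this count are therefore no independent test of the difference. With at least 2000 genes per nucleus only 3 vectors remained, no member passed, and Dpp6, Dpp10 and Kcnip4 turned direction: 418 CPM of Dpp6, 178 of Dpp10 and 281 of Kcnip4 were in these few sums. Within the series S40324, 2 members passed, Kcnip1 and Dpp6. Without runs holding SPN-like nuclei 3 did, Kcnip1, Dpp6 and Kcnip4, and Kcnd2 (adjusted p = 0.339) and Kcnip2 (0.0628) did not. In the other lists 8 of 11 Kv pores were lower, among them Kcnc2 (4.95 ± 13.6 against 174 ± 134 CPM), Kcnc1 (14.5 ± 30.1 against 296 ± 174) and Kcna4, as were 3 of 5 calcium sensors (Hpcal4, Ncald and Ncs1), 7 of 12 partners (led by Kcnab3, at 2.97 ± 7.30 against 64.1 ± 43.8 CPM, Kcnab2, Flna and Kcnab1) and Dpp9 of 2 peptidase relatives, and none was higher. Hpcal4 had a higher mean in the non-neuronal-like sums (81.0 ± 151 against 62.5 ± 40.3 CPM) although it was lower in 12 of 15 vectors.

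Oligodendrocyte-like and astrocyte-like nuclei met in 1 vector with enough nuclei, so their levels are given without a test. In 7 oligodendrocyte-like sums Dpp6, Kcnd3 and Kcnip1 had no count, and Kcnip2, Kcnip3, Kcnip4, Dpp10 and Kcnd1 reached at most 5.79 CPM. Kcnd2 was at 0 in 5 of 7 sums, and its mean of 18.9 ± 32.2 CPM came from 2 nuclei of 50. In 9 astrocyte-like sums Kcnip3 ran from 0 through 71.98 to 184 CPM, and it was the leading KChIP there, with 82.2% of the KChIP level per exon kilobase and counts in 22 of 106 nuclei (20.8%, exact 95% interval 13.5% to 29.7%). Pooled by library series, it had 134.5 CPM in S40324, 30.3 in S40326 and 0 in S40323. The median astrocyte-like sum was 0 for Kcnd2, Kcnd3, Kcnip1, Kcnip2, Kcnip4, Dpp6 and Dpp10, and 1 nucleus held 82.8% of Dpp10 and 52.7% of Dpp6 counts. One astrocyte-like nucleus carried 8 of the 9 members. The astrocyte-like sums also held 166 to 3195 CPM of oligodendrocyte and 64.7 to 7018 CPM of vascular markers. Neuronal markers were counted there too: 0 to 1426 CPM of SPN, 16.4 to 288.5 of GABAergic and 0 to 162.7 of glutamatergic markers. In oligodendrocyte-like sums SPN markers reached 1616 CPM, GABAergic ones 785.9 and glutamatergic ones 104. The part of these markers' source cells in the glial levels was not tested.

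Sst-like nuclei (77 nuclei, 10 vectors with at least 3 of them) and Pvalb-like nuclei (100 nuclei, 16 such vectors) were compared in 10 vectors, where 0 of 6 tested members passed (1 at an unadjusted p under 0.05), against 0.579% of all genes, 0.358% higher and 0.221% lower. Kcnip2 had 0, 0 and 61.7 CPM in the lowest, median and highest Sst-like sum, against 0, 166 and 525 in the Pvalb-like sums. It was below in 8 of 10 vectors with overlapping ranges (ratio of means 0.0882, log2 fold change -7.29, SE 2.498, unadjusted p = 0.00742, adjusted p = 0.426 in edgeR's quasi-likelihood fit; adjusted p = 2.88e-05 with DESeq2 and 0.0248 with no filter beyond 1 count). It was counted in 6 of 77 Sst-like nuclei (7.79%) and 51 of 100 Pvalb-like nuclei (51.0%). Kcnd3 had 55.1 CPM in the median Sst-like and 0 in the median Pvalb-like sum and was above in 7 vectors, with both classes at 0 in the other 3; it missed the filter.

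The other members of this pair had wide ranges. Kcnip1 averaged 197 ± 170 in Sst-like and 250 ± 99.1 CPM in Pvalb-like sums, Dpp6 272 ± 165 against 288 ± 153, Dpp10 98.7 ± 132 against 75.6 ± 76.2, Kcnd2 79.6 ± 83.6 against 51.3 ± 52.4 and Kcnip4 60.2 ± 54.3 against 40.9 ± 37.5, all with an adjusted p of 1 in edgeR. Kcnc1 was lower (258 ± 193 against 1166 ± 315 CPM, adjusted p = 7.63e-04), the 1 of 10 tested other pores that passed; none of 5 calcium sensors, 2 peptidase relatives and 12 partners did. The Sst-like nuclei held 2 groups. In 26 nuclei led by Sst, Nos1 and Npy, pooled levels were 145 CPM of Kcnd2, 92.8 of Kcnip1 and 36.4 of Kcnip2, and in 51 led by Unc13c and Sst they were 53.0, 286 and 2.43 CPM, without a test. The median log2 fold change of the members was 0.25, beside -0.20 over all genes.

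Lamp5-like nuclei (25 nuclei, with 3 sums of at least 3 nuclei) had another set, described without a test. Kcnd2 and Kcnd1 had no count in any of the 25, which allows a share of up to 12% by the floor of 3 counts and 13.7% by the exact 95% interval. The 3 sums of Kcnd3 were between 8.66 and 246 CPM with a mean of 135 ± 119, Kcnip1 averaged 410 ± 457 and Kcnip4 225 ± 231, and Kcnip2 was counted in 1 nucleus. With at least 2000 genes per nucleus the Kcnd3 mean was 0, and with at least 500 genes 10.4 CPM, so its level moved with the nuclei kept.

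**Figure D4:**
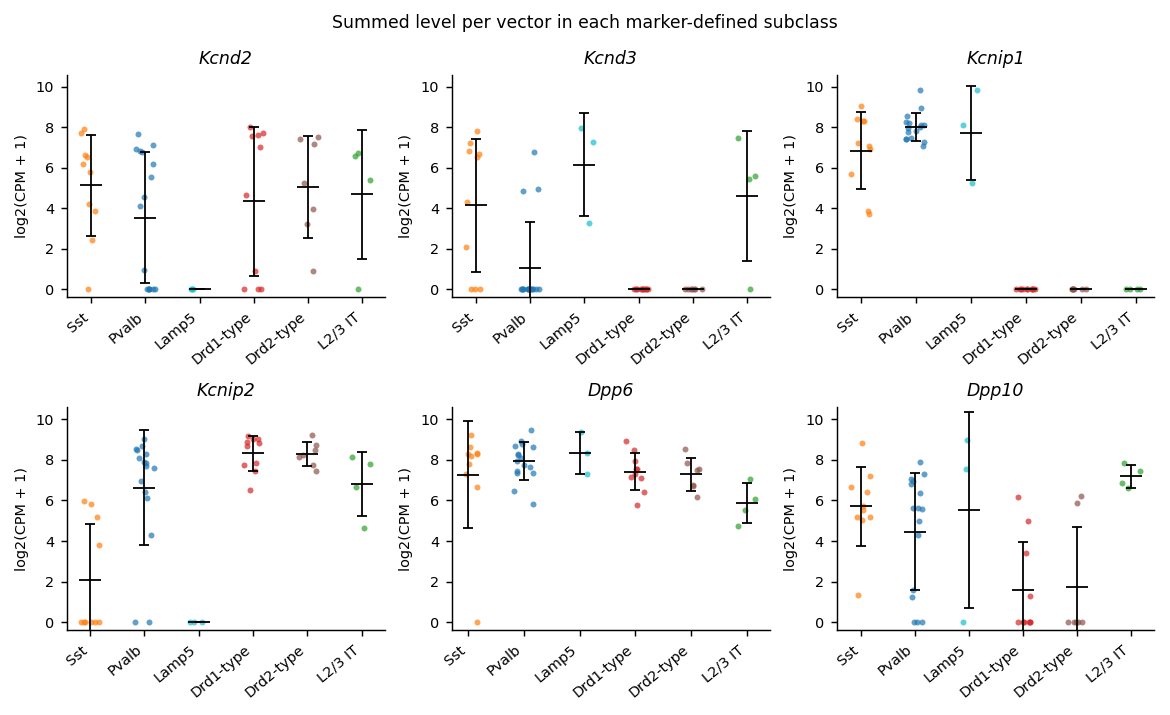
Points are summed levels per vector in 6 subclasses on a log2(CPM + 1) axis, with the mean and SD of the log values as bars. Kcnip2 is at 0 in 6 of 10 Sst-like and 3 of 3 Lamp5-like sums, and Kcnd3 and Kcnip1 are at 0 in every Drd1-type-like and Drd2-type-like sum.

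Drd1-type-like and Drd2-type-like nuclei, the striatal projection neurons of the direct and the indirect pathway by their markers, were compared in 6 vectors. Kcnip2 averaged 333 ± 181 in Drd1-type-like and 344 ± 152 CPM in Drd2-type-like sums, Dpp6 183 ± 95.6 against 179 ± 114, Kcnd2 87.3 ± 98.9 against 91.8 ± 80.2, Kcnip3 146 ± 93.7 against 97.5 ± 66.0 and Kcnip4 60.0 ± 31.6 against 74.6 ± 46.0 CPM. The log2 fold changes were -0.20 (SE 0.55), 0.06 (SE 0.78), -2.38 (SE 2.02), 0.46 (SE 1.02) and -0.21 (SE 1.51), each under 2 SE, with the widest errors for Kcnd2 and Kcnip4, which does not show that the levels were equal. None of 5 tested members passed, nor at an unadjusted p of 0.05 or with DESeq2, against 0.0155% of all genes, and no gene of the other lists did. Kcnd3 and Kcnip1 had no count in either class in these vectors. Dpp10 (6.99 ± 12.3 against 21.9 ± 34.3 CPM) and Kcnd1 missed the filter. The members' median log2 fold change was -0.20, beside -0.07 over all genes.

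L2/3 IT-like nuclei, cortical pyramidal neurons of the upper layers by their markers (31 nuclei, 4 sums), had Kcnip4 as the leading KChIP per exon kilobase (48.8%), ahead of Kcnip2 (37.8%). Kcnip2 averaged 157 ± 118 CPM there, Kcnip4 212 ± 154 and Dpp10 153 ± 58.9 (SD, n = 4 vectors), and Kcnip1 had no count.

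Summed over its 40 nuclei, each vector was 1 sample with between 9467151 and 12192831 counts, so levels between vectors were not tested. Dpp10 ran from 0.296 CPM in AiE0410m through a median of 64.4 to 255 in hSyn1, and Kcnip1 from 3.65 in AiE0410m through 72.2 to 266 in AiE0452h. Kcnip2 ranged from 10.9 in AiE0390m to 253 in AiE0387m, Kcnd2 from 2.74 to 147 in the same 2 vectors, and Dpp6 from 38.2 in AiE0410m to 316 in AiE0475m. Kcnip3 (15.7 in AiE0452h to 99.2 in hSyn1), Kcnip4 (5.92 in AiE0410m to 107 in AiE0078h), Kcnd3 (0 in AiE0410m to 67.4 in AiE0387m) and Kcnd1 (0.164 in AiE0779m to 34.7 in hSyn1) completed the set. The class make-up also differed between vectors, and whether the levels followed it was not tested. AiE0452h had 29 GABAergic-like nuclei, hSyn1 had 27 glutamatergic-like ones, and AiE0387m had 25 SPN-like and no non-neuronal-like nuclei. AiE0390m had 25 astrocyte-like nuclei, and only 12 nuclei of AiE0410m had at least 1000 genes. Over nuclei with at least 1000 genes alone, AiE0410m had 13.01 CPM of Kcnip1, 136 of Dpp6, 21.1 of Kcnip4, 181 of Kcnip2 and 1.06 of Dpp10. The lowest vector was then AiE0779m for Kcnip1 (0 CPM, against 59.5 over its 40 nuclei), AiE0390m for Dpp6, DLX2.0 for Kcnip4 (15.3) and hI56i for Kcnd1 (0.147), and the highest was hI56i for Kcnip3 (128.5) and AiE0390m for Kcnd3 (68.6).

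**Figure D5:**
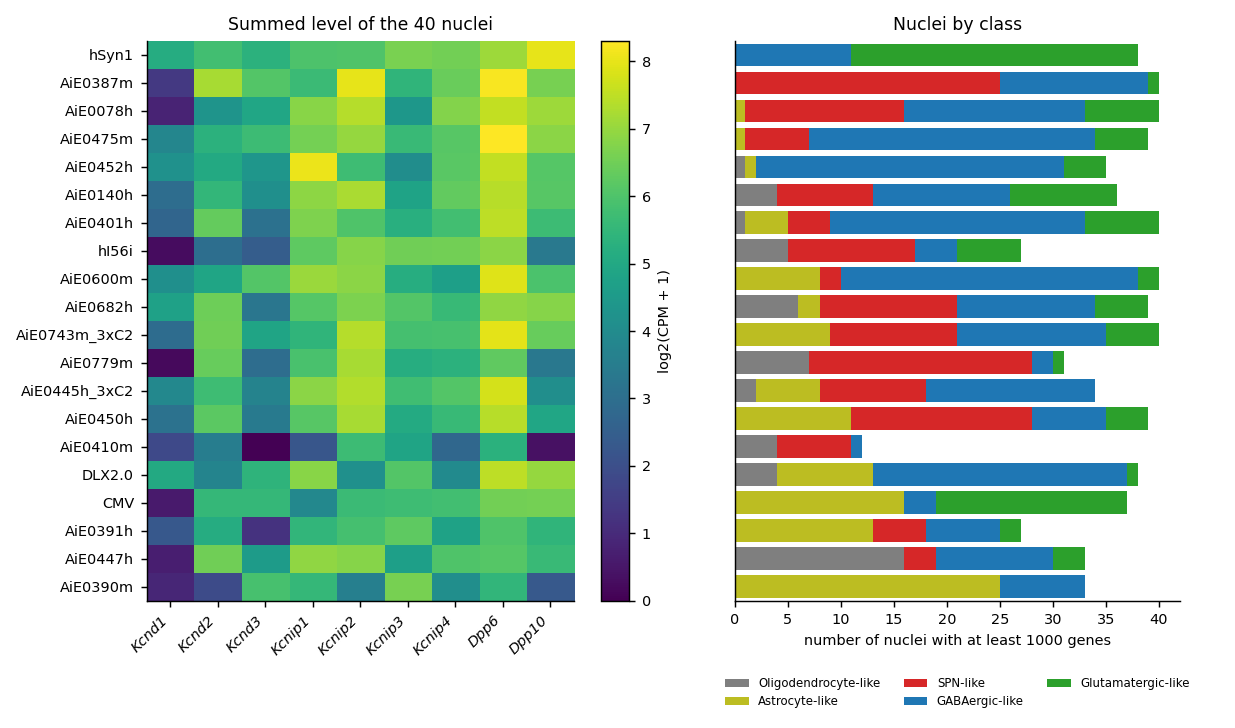
The left panel gives log2(CPM + 1) of each member over the 40 nuclei of a vector, and the right panel the number of nuclei with at least 1000 genes by class; vectors are ordered by their share of non-neuronal-like nuclei. Dpp10 is highest in hSyn1 (255 CPM) and Kcnip1 in AiE0452h (266 CPM), and AiE0390m, with 25 astrocyte-like nuclei, has the lowest Kcnip2 (10.9 CPM).

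The genes whose pattern was most like each member were sought over 60 sums of a vector and class among 15751 genes outside the lists, by Pearson's r of log2(CPM + 1); the sums share classes, libraries and depth, so r is a description. Kcnip1 was most like Gm12120 (r = 0.979), which lies on the opposite strand within it, and Akain1 (0.954). Kcnip4 was most like Snhg11 (0.946) and Ica1 (0.938), Dpp6 like Rian (0.868) and Rims1 (0.864), Dpp10 like Cpne6 (0.865) and Syn1 (0.831), and Kcnip2 like Nrxn3 (0.842) and Plxna2 (0.838). Kcnd2 was most like Bcl11b (0.746) and Ptpn5 (0.732), Kcnd3 like Resp18 (0.726) and Sh2d3c (0.691), Kcnip3 like Psd3 (0.701) and Meis2 (0.680), and Kcnd1 like Gm6712 (0.559) and 2310074N15Rik (0.536).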

How the data were processed

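The deposited table holds raw read counts per gene for single nuclei, 1 nucleus per library, which the authors aligned with STAR 2.7.2a to mm10, per the submitters' processing notes; no source used here states how reads were assigned to genes, which annotation served or whether introns counted. Of its 2501 columns, 1701 match no label used here and were left out, and 127 of 32285 gene IDs had no symbol. The counts carry no molecular identifiers, so intervals (exact binomial, 95%) and floors cover counting error only. Doublets were not called, as each library held 1 sorted nucleus.

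Nuclei with at least 1000 genes were clustered (scanpy 1.11.5, 2000 variable genes, 30 components, 15 neighbours, leidenalg 0.10.2, resolution 1) without 51 list genes. A cluster was named from at least 3 markers detected in at least 25% of its nuclei and 1 among its top 10 genes, and a subclass also needed its defining gene in 50%. Counts were summed per vector and class over at least 3 nuclei, and classes were compared within vectors with edgeR 4.0.16 (R 4.3.3, vector as a block, trimmed mean scaling, low counts filtered, quasi-likelihood F test, Benjamini-Hochberg adjustment, threshold 0.05). DESeq2 1.42.0 was an alternative, beside other scaling, filters, depths, cluster settings and vectors left out. Cluster recovery was run on 698 simulated nuclei, each drawn from the summed profile of its assigned class at its own depth. These nuclei had no spread within a class beyond counting, so their separation does not show how well real nuclei separate. All 698 fell in a cluster of their class, but only 592 were given their class name, and 106 were in clusters left unnamed. Simulated sums, run for the test, gave 1 false call among 8943 genes between GABAergic-like and glutamatergic-like sums. In that pair, 4-fold changes were called for 10 of 85 tested genes and 16-fold changes for 44 of 75. At 4-fold and 16-fold it was 0 of 91 and 11 of 88 between non-neuronal-like and neuronal-like, 3 of 82 and 39 of 78 between Sst-like and Pvalb-like, and 3 of 67 and 29 of 73 between Drd1-type-like and Drd2-type-like sums; between SPN-like and glutamatergic-like sums it was 10 of 81 and 44 of 76, and between SPN-like and GABAergic-like sums 14 of 96 and 40 of 81.

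The members, the gene lists and the tests were chosen with earlier results of these data known, and the naming conditions of classes were settled after looking at clusters. All 9 members were named in every comparison, other list genes where they passed the threshold (up to 4 per list, by adjusted p; some are not reported here), and per member the 2 other genes, of at least 1 CPM on average, with the highest correlation of log2(CPM + 1). Transcript lengths and positions are from GENCODE M21. Samples were grouped by the vector in their titles.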

Additional observations from a re-analysis of the deposited data

Results flagged for a closer look

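In 15 of 46 groups of vector sums, the highest vector stood apart from the others by Dixon's criterion, which chance meets in about 1 group of 20. Only groups of 4 to 10 vectors were screened. The SPN-like, GABAergic-like, glutamatergic-like, Pvalb-like, Lamp5-like and pooled classes were therefore not screened and may also hold outlying vectors. Sums over few nuclei with many zeros are skewed, and what set the flagged vectors apart was not tested. Among astrocyte-like sums, DLX2.0 had 89.4 CPM of Kcnd1 over 9 nuclei, next to 8.51 in the nearest vector, and 1 nucleus gave 56.4% of all astrocyte-like Kcnd1 counts. AiE0401h, with 4 astrocyte-like nuclei, had 61.6 CPM of Kcnd2, 49.9 of Kcnip2 and 29.7 of Kcnip4, next to 4.01, 22.1 and 12.7 in the nearest vectors. AiE0391h, with 13, had 2.13 CPM of Kcnip1 and 73.1 of Dpp10, next to 0 and 32.9. Among oligodendrocyte-like sums, AiE0682h (6 nuclei) had 4.21 CPM of Kcnip2, 5.79 of Kcnip3, 5.79 of Kcnip4 and 1.58 of Dpp10, each next to at most 0.202. Among Sst-like sums, AiE0682h (3 nuclei) had 137.0 CPM of Kcnd1, next to 40.1, and AiE0475m (5 nuclei) had 454.0 of Dpp10, next to 149. Among Drd1-type-like sums, AiE0743m_3xC2 (7 nuclei) had 27.4 CPM of Kcnd1, next to 8.52, and AiE0475m (5 nuclei) had 70.8 of Dpp10, next to 30.9. Among L2/3 IT-like sums, hSyn1 (10 nuclei) had 98.9 CPM of Kcnd1, next to 0.911.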

How the results depend on the processing

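The main test has the vector as a block; the replicate numbers in the titles only count the nuclei of a vector and pair nothing across groups. With no replicate block, 1 member instead of 2 passed between GABAergic-like and glutamatergic-like sums, 1 instead of 2 between SPN-like and glutamatergic-like, 2 instead of 4 between SPN-like and GABAergic-like (Kcnip3 and Dpp10 were lost) and 4 instead of 7 between non-neuronal-like and neuronal-like sums. Between GABAergic-like and glutamatergic-like sums 1 member also passed with at least 5 nuclei, within the series S40326 and without runs holding SPN-like nuclei. Between SPN-like and glutamatergic-like sums 0 passed with at least 5 nuclei, and 1 with Leiden resolution 2, a marker score per nucleus, a minimum of 2000 or of 500 genes, or within S40326. Between non-neuronal-like and neuronal-like sums 0 passed with a minimum of 2000 genes, 2 within S40324 and 3 without runs holding SPN-like nuclei; there Dpp10, Dpp6 and Kcnip4 turned to log2 fold changes of 0.51, 0.23 and 1.96 with the minimum of 2000 genes, where the sums came from 3 vectors. Between Sst-like and Pvalb-like sums, where the main test called 0 and 1 member had an unadjusted p under 0.05, 1 passed with DESeq2 and 1 with no filter. Leaving out 1 vector at a time gave 2 to 3, 1 to 2, 3 to 5 and 7 to 7 members in the first 4 comparisons in this order, and 0 in the Sst-like and Drd1-type-like ones. Between SPN-like and GABAergic-like sums, the runs without AiE0391h or hI56i counted Kcnd3, which the main run did not test. Over the 6 comparisons and their alternatives, 117 counts of members past the threshold stayed within 1.5 times of the main count, 2 were larger and 23 smaller. DESeq2 called the most genes over all, up to 6123 in the non-neuronal-like comparison, against 3398 in edgeR; over all alternatives the calls ran from 41 to 1459, 54 to 1066, 382 to 2557 and 4 to 6123 in the first 4 comparisons, 3 to 620 between Sst-like and Pvalb-like and 0 to 261 between Drd1-type-like and Drd2-type-like sums. RLE scaling moved the median of all genes by over 0.1 between SPN-like and glutamatergic-like sums, -0.08 against 0.04. Of the members' levels per vector, recomputed under each of 2 settings, 148 moved beyond counting error (only nuclei of at least 1000 genes, or the mean of CPM over nuclei) and 212 did not. Causes of these shifts were not tested. Fits within S40324 for the neuronal comparisons, and 4 settings for the Drd1-type-like comparison, were not run because fewer than 3 vectors remained, and neither was any oligodendrocyte-like against astrocyte-like fit. Few counts limit the low members: 1 nucleus held 49.0% of Kcnd1 counts in glutamatergic-like and 80.0% of Kcnd3 counts in SPN-like nuclei.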

Other observations

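Clusters within the classes, pooled over vectors and described without a test, held other sets of members. A GABAergic-like group of 20 nuclei led by Serpine2 and Lhx8, which met no subclass name, had no count of Kcnip2 or Kcnip3, with 368 CPM of Dpp6, 162 of Kcnip4 and 87.2 of Kcnip1. Another unnamed group of 10 nuclei, led by Spon1 and Trhde, had no count of Kcnd2 and 203 CPM of Kcnd3, 365 of Kcnip2 and 541 of Dpp6. Among Pvalb-like nuclei, 19 led by Gpr83, Kit and Igfbp4 had 76.3 CPM of Kcnd3 and 118 of Kcnip2, and the other 81 had 0 and 213.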
